A study of Homo sapiens with 6 samples.

Results

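Collagen genes are described here in C4-2B cells, an established line of castration-resistant metastatic prostate carcinoma, and in RC4-2B, a subclone of it made resistant to the taxane cabazitaxel (CBZ). Members were the protein-coding genes of the deposited count table whose symbol has the form COL, number, A, number. There were 44 of them among 58735 genes, and every one of the 44 is accounted for below. RNA was taken from 3 biological replicates of C4-2B and 3 of RC4-2B, and nothing in the labels says whether the replicates came from separate thawings or passages, so p-values measure the spread between these cultures. RC4-2B had been selected over 4 months in cycles of 72 h of CBZ, from 0.1 nM to 20 nM, and no drug is named for the culture from which RNA was taken. Medium was RPMI-1640 with 10% fetal bovine serum according to the labels, whereas the methods also name charcoal-stripped serum. RC4-2B is a single subclone, so what belongs to resistance and what belongs to that subclone cannot be told apart. Cells were grown on plastic, without stroma.

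Collagens are secreted proteins whose chains wind into a triple helix and then assemble outside the cell. Fibril-forming collagens build the cables of bone, tendon and stroma, and collagen IV chains build the mesh of basement membranes on which epithelia rest. Collagen VI forms beaded filaments. Fibril-associated collagens with interrupted helices, among them collagen XII and collagen IX, coat fibrils. Other members span the plasma membrane or, like collagen XVIII, sit in basement membranes and carry sugar chains. In most tissues stromal cells make the bulk of fibrillar collagen, and carcinoma cells contribute a smaller and different set. Some collagen types, such as collagen III, are built from the chain of a single gene. Where the chains of a type come from several genes they must meet in the same cell, so partner chains are given side by side.

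Libraries held between 15707134 and 18052517 counts on genes, and 3 counts, taken as the floor of detection, correspond to 0.170 to 0.188 CPM, that is counts scaled to library size. Markers of prostate luminal epithelium were present in all libraries, 11 of 11 being testable, and their summed CPM was 4562 to 4654 in C4-2B against 3548 to 4176 in RC4-2B. By edgeR 2 of the 11 were called lower, KLK3 (log2 fold change -4.33) and TMPRSS2 (-1.08), and DESeq2 called 1 higher and 3 lower. Over all tested genes edgeR called 0.903% lower, and DESeq2 called 3.28% higher and 2.64% lower. Of 14 fibroblast and mesenchymal markers, 8 were at or under the floor in every library, among them DCN, LUM, THY1, POSTN and FAP, which had no count in any. Another 5 of the 14 were abundant enough to be tested, with a median log2 fold change of 0.31 (from -1.57 to 0.89). The summed CPM of that list was 19.8 to 21.3 in C4-2B against 22.6 to 26.3 in RC4-2B, and 0 of its 5 tested genes passed the edgeR threshold in either direction (1 higher and 1 lower at an unadjusted p under 0.05, and ACTA2 called lower by DESeq2). Endothelial markers summed to 8.27 to 9.22 CPM in C4-2B against 4.99 to 5.94 CPM in RC4-2B with PECAM1 at 0 throughout and VWF called lower by DESeq2, and 6 of 7 blood markers were at or under the floor. RC4-2B replicate 2 stood apart from the other libraries, as described for collagens below.

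Carcinoma cells made a short list of collagens. More than 3 counts in every library of a group were found for 20 collagen genes in C4-2B against 15 in RC4-2B. Those met in C4-2B alone were COL12A1, COL13A1, COL16A1, COL4A3 and COL27A1. COL16A1 fell out through RC4-2B replicate 2 alone, with 1 count, and COL4A3 through RC4-2B replicate 3 alone, with 2 counts. The matching numbers over all genes were not counted, so no loss of collagens is read from this. By deposited FPKM, the only scale on which genes are compared here, 5 genes held 87.8% to 89.4% of the summed collagen signal of each library. These were COL6A1, COL6A2, COL4A5, COL26A1 and COL1A1. COL6A1 alone held 37.6% to 48.6%. The summed collagen FPKM was 53.1, 52.1 and 57.2 in C4-2B against 54.9, 31.6 and 51.5 in RC4-2B. RC4-2B replicate 1 lay within the C4-2B range, replicate 3 just under it and replicate 2 far under it.

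**Figure D1:**
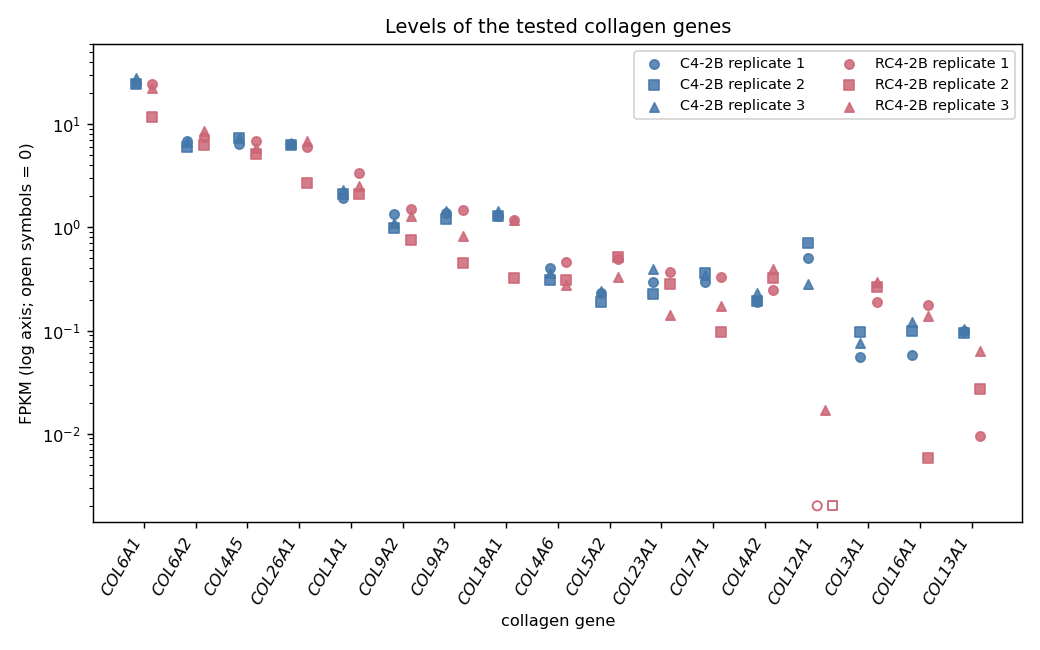
Level of each of the 17 tested collagen genes (x axis, ordered by mean) in each of the 6 libraries, as deposited FPKM on a log axis (y axis); each point is a library and open symbols at the bottom are values of 0. COL6A1 lies above all others, with values between 11.9 and 27.8, and RC4-2B replicate 2 (squares) is the lowest RC4-2B library for COL6A1, COL26A1 and COL18A1.

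Beaded filament collagen VI was the most abundant class, with 57.3% to 60.3% of the collagen FPKM of a library. COL6A1, an obligatory chain of collagen VI at chromosome 21:45981737-46005050, had FPKM of 25.1, 24.4 and 27.8 in C4-2B against 24.5, 11.9 and 22.4 in RC4-2B. COL6A2, its neighbour and partner chain, had FPKM of 6.89, 6.01 and 6.70 in C4-2B against 7.52, 6.23 and 8.51 in RC4-2B. Both groups overlapped for both genes. COL6A3, the chain that usually completes collagen VI, had 0, 0 and 0 counts in C4-2B against 0, 3 and 2 in RC4-2B, COL6A6 reached 3 counts in a single library, and COL6A5 had none. COL6A1 therefore stood 3.64, 4.06 and 4.15 times above COL6A2 in C4-2B, and 3.27, 1.90 and 2.63 times above it in RC4-2B, in FPKM. Every RC4-2B ratio was under every C4-2B ratio. The smallest ratio belonged to RC4-2B replicate 2, and the other 2 RC4-2B ratios were also under those of C4-2B. A comparison of 3 against 3 values cannot give an exact permutation p under 0.1, and the ratio was not tested.

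Basement membrane collagen IV held 13.0% to 18.6% of collagen FPKM, nearly all of it from COL4A5. This X-linked chain (chromosome X:108439844-108697545), mutated in Alport syndrome, had FPKM of 6.43, 7.28 and 7.41 in C4-2B against 6.83, 5.14 and 5.86 in RC4-2B. COL4A6, which lies head to head with it and whose chain joins that of COL4A5 in some basement membranes, had 70, 57 and 65 counts in C4-2B against 77, 54 and 48 in RC4-2B. COL4A5 stood 14.7 to 23.5 times above COL4A6 in FPKM, with both groups overlapping. The common pair of basement membranes was unequal as well. COL4A2 (chromosome 13:110305812-110513209) had 68, 74 and 86 counts in C4-2B against 85, 117 and 143 in RC4-2B, whereas COL4A1, the chain it normally joins, had 2, 0 and 0 counts in C4-2B against 1, 1 and 0 in RC4-2B. COL4A1 was at or under the floor in every library. COL4A3 had 5, 4 and 6 counts in C4-2B against 6, 8 and 2 in RC4-2B, and its head-to-head partner COL4A4 had 8, 5 and 9 in C4-2B against 12, 10 and 26 in RC4-2B. COL4A4 groups did not overlap, although the gene was under the abundance filter and was not tested.

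The genes of each of these pairs share the stretch between their start sites. Sequence is shown for COL4A1 with COL4A2 and for COL4A5 with COL4A6, whose counts were far more unequal than those of COL4A3 and COL4A4. For COL4A5 with COL4A6 only the 250 bases next to COL4A5 are shown. By the starts that RefSeq gives, 126 bases lie between COL4A1 and COL4A2, 418 between COL4A3 and COL4A4 and 379 between COL4A5 and COL4A6. Other annotations differ, and in the deposited table and in GENCODE 44 the COL4A2 model begins inside COL4A1. Sequences were read from GRCh38.p14, 5′ to 3′ on the strand given before each, without bases that GENCODE 44 annotates as exon. Motifs were searched for on both strands, and no match overlapped one of another motif. The CCAAT box was searched for as CCAAT. For the GC box the letters were GGGCGG. For the TATA box they were TATAAA. Capitals mark a match, as its reverse complement where it lies on the other strand.
chr13:110307158-110307257, plus strand, between COL4A1 and COL4A2: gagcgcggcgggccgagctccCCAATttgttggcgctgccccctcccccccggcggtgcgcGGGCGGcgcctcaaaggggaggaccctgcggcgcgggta
chrX:108439588-108439837, plus strand, before COL4A5: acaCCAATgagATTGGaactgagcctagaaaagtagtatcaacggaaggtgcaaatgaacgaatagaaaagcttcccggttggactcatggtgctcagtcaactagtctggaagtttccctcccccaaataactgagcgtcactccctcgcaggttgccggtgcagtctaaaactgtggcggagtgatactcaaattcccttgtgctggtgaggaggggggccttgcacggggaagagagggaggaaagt
The stretch between COL4A1 and COL4A2 had 1 CCAAT box and 1 GC box in 100 bases. The 250 bases before COL4A5 had 2 CCAAT boxes and no GC box. Neither held a TATA box. Among 35116 RefSeq promoter windows of 250 bases (GRCh38.p14), 32% held a CCAAT box, 42.6% a GC box and 10.7% a TATA box, and 32 of the 44 collagens had an entry in that table. These matches describe the letters of the windows.

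COL26A1, an extracellular protein with short collagen stretches and no well-settled role, came next by FPKM, with 6.44, 6.28 and 6.54 in C4-2B against 5.97, 2.67 and 6.82 in RC4-2B. Values in C4-2B were tight, and RC4-2B replicate 2 lay far under the rest. COL6A2, COL4A5 and COL26A1 had mean FPKM of 6.98, 6.49 and 5.79 over the 6 libraries, and their ranges overlapped, so their order is not resolved. That order also depended on gene length, as did the size of ratios between genes. Mean FPKM was therefore also scaled to the canonical transcript of GENCODE 44 instead of the longer length in the deposited table. COL6A1 then came to 28.8, COL4A5 to 11.8 and COL6A2 to 10.9. COL4A2 moved from rank 13 to rank 9, because the table gives it 19293 bases against 6446 in the canonical transcript.

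Among fibril-forming collagens COL1A1 was the highest. This α1 chain of collagen I, the main protein of bone (chromosome 17:50183289-50201632), had FPKM of 1.93, 2.12 and 2.32 in C4-2B against 3.33, 2.12 and 2.51 in RC4-2B. COL1A2, the gene of the α2 chain that joins it in ordinary collagen I, had no count in any of the 6 libraries, against 355 to 585 counts for COL1A1. COL5A2, a chain that helps to set fibril diameter, had 32, 28 and 35 counts in C4-2B against 66, 72 and 46 in RC4-2B. Its usual partner COL5A1 had 9, 3 and 18 counts in C4-2B against 2, 2 and 6 in RC4-2B. COL3A1, the homotrimeric collagen of vessels and skin that lies next to COL5A2 on chromosome 2, had 7, 13 and 10 counts in C4-2B against 23, 34 and 38 in RC4-2B. Of the other fibril-forming genes, COL24A1 reached 11 counts in C4-2B replicate 2, COL27A1 ran from 0 to 8 and COL11A2 from 2 to 6, while COL2A1, COL5A3 and COL11A1 did not exceed 3 counts.

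Cartilage collagen IX was represented by COL9A2 and COL9A3 without COL9A1. COL9A2 had 107, 82 and 91 counts in C4-2B against 113, 60 and 103 in RC4-2B. COL9A3 had 126, 115 and 136 counts in C4-2B against 127, 41 and 76 in RC4-2B, and it overlaps TCFL5 on the opposite strand, a gene with up to 527 counts. COL9A1 did not exceed 5 counts. The FPKM ratio of COL9A2 to COL9A3 was 0.975, 0.819 and 0.768 in C4-2B against 1.02, 1.68 and 1.56 in RC4-2B, so that every ratio in RC4-2B was above every ratio in C4-2B, a difference that was not tested. The size of the ratio depended on gene length. Mean FPKM over all libraries was 1.17 for COL9A2 and 1.13 for COL9A3 as deposited, but 1.72 and 2.19 when scaled to the canonical transcripts. COL18A1, whose C-terminal fragment is endostatin, had FPKM of 1.28 to 1.45 in C4-2B against 0.325 to 1.18 in RC4-2B. COL18A1 overlaps SLC19A1 on the opposite strand, which had up to 1536 counts, and the treatment of strand in the counting is not given in the sources used here.

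Membrane-spanning collagens were low. COL13A1 had 11, 11 and 12 counts in C4-2B against 1, 3 and 7 in RC4-2B, COL17A1, a hemidesmosome component of basal epithelium, did not exceed 4 counts, and COL25A1 had 1 count in all. COL23A1 and COL7A1, the collagen of anchoring fibrils, had mean FPKM of 0.307 and 0.332 in C4-2B against 0.265 and 0.201 in RC4-2B. Hexagonal network collagens (COL8A1, COL8A2 and COL10A1) had at most 4 counts. In all, 27 of the 44 members were under the abundance filter and untested. Of these, 7 had no count in any library, namely COL1A2, COL6A5, COL15A1, COL19A1, COL21A1, COL22A1 and COL28A1, which at this depth allows up to 0.188 CPM. A further 11 were at or under 3 counts in every library, among them the fibril-associated COL14A1, with 3, 0 and 0 counts in C4-2B against 0, 0 and 2 in RC4-2B, and COL20A1, with 0, 1 and 2 counts against none. The fibril-associated COL16A1 was tested and had 10, 18 and 22 counts in C4-2B against 29, 1 and 24 in RC4-2B, the low value again being RC4-2B replicate 2.

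COL12A1 was the collagen called different between the lines by the edgeR test. It encodes collagen XII, a fibril-associated collagen that bridges collagen I fibrils and their surroundings. Counts were 119, 175 and 68 in the C4-2B libraries against 0, 0 and 4 in the RC4-2B libraries. CPM was 7.10, 9.91 and 3.87 in C4-2B against 0, 0 and 0.235 in RC4-2B, that is 6.96 ± 3.02 against 0.0783 ± 0.136 (SD, n = 3). The groups did not approach each other, even though the C4-2B libraries spread widely. Pooled over libraries, 362 counts in C4-2B stood against 4 in RC4-2B, which puts RC4-2B at 1.14% of C4-2B (exact 95% interval 0.308% to 2.93%), or 88.0-fold lower (34.1 to 325). These intervals cover counting error only. The fitted log2 fold change was -6.33 (SE 0.73, adjusted p = 0.00625, edgeR quasi-likelihood test with Benjamini-Hochberg adjustment). Leaving out each library in turn, the adjusted p was at most 0.0484 (edgeR). As COL12A1 was named among the members with its decrease already known, this value is a description. Its size is loosely set, since the fitted log2 fold change ran from -5.76 to -9.90 when a library was left out and was -5.17 with a prior count of 2. The value of -9.90, without RC4-2B replicate 3, sets C4-2B against libraries with no count and is no bound. In bulk RNA, fewer cells that express a gene and less RNA per cell cannot be told apart.

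In FPKM, COL12A1 was a minor collagen even in C4-2B, at 0.509, 0.708 and 0.280, under COL18A1 and far under COL6A1. Its locus, chromosome 6:75084326-75206051 in the deposited table, is transcribed from the minus strand, and the canonical transcript has 66 exons. No annotated gene of the table overlaps it. The 250 bases before its outermost GENCODE 44 start are shown as the stretch next to the start of the member that passed the test, with the GC box, in its reverse complement form, in capitals.
chr6:75206268-75206517, minus strand, before COL12A1: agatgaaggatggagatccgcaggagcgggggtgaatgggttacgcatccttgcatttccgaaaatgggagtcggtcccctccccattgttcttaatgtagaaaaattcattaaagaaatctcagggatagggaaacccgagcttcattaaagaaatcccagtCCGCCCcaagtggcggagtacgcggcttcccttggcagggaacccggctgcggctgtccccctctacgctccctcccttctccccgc
This window held 1 GC box and neither a CCAAT box nor a TATA box.

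**Figure D2:**
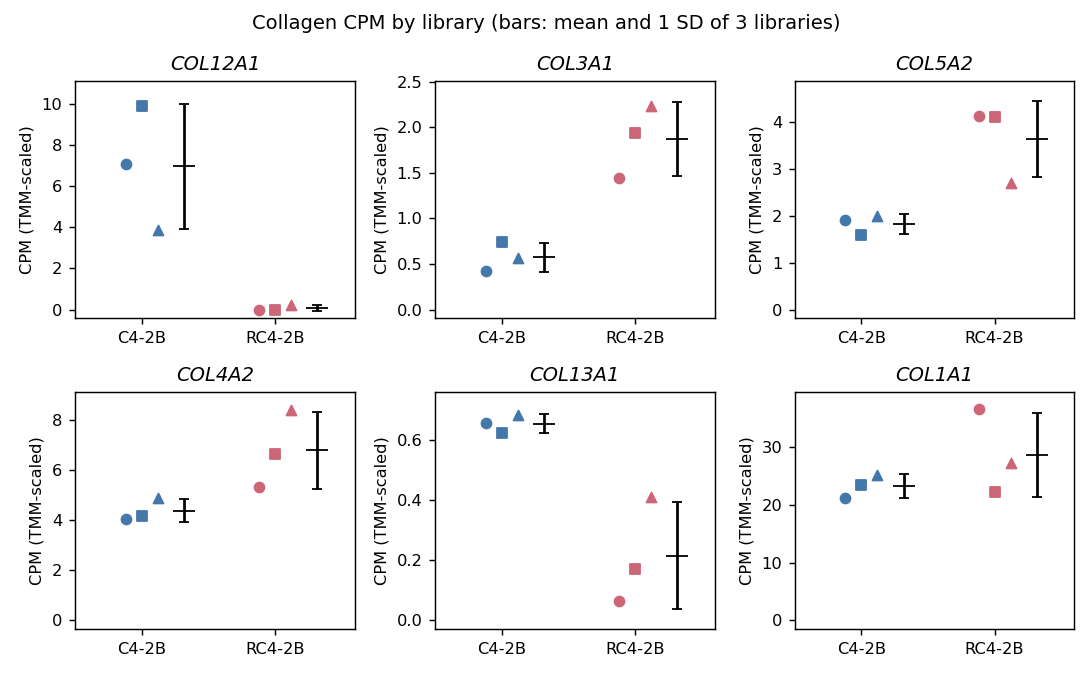
CPM of 6 collagen genes by library (y axis, library-size-scaled counts, TMM) in C4-2B and RC4-2B (x axis); circles, squares and triangles are replicates 1, 2 and 3, and black bars are the mean and 1 SD of 3 libraries. COL12A1 runs from 3.87 to 9.91 in C4-2B and from 0 to 0.235 in RC4-2B, whereas COL1A1 overlaps between the groups.

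No tested gene close to COL12A1 was called lower with it. Counting by the lower coordinate of each gene, the table held 29 other genes within 1 Mb, of which 21 were at or under the floor in every library and 6 were tested. Of these 6, 0 passed the threshold in either direction by edgeR or by DESeq2, and 0 had an unadjusted edgeR p under 0.05. The nearest was COX7A2, a subunit of cytochrome c oxidase, which lies 31623 bases away on the higher-coordinate side. It had 2389, 2245 and 2193 counts in C4-2B against 1981, 2323 and 1814 in RC4-2B (log2 fold change -0.12, SE 0.12, adjusted p = 0.554, edgeR). MYO6, an actin motor, had a log2 fold change of 0.28 (adjusted p = 0.237, edgeR). On the lower-coordinate side no gene within 1 Mb was tested, and the nearest tested gene beyond it, the sialic acid transporter SLC17A5, had a log2 fold change of 0.03. Within 5 Mb the only other gene past the threshold was RIMS1, which was higher in RC4-2B by 1.05 on the log2 scale (adjusted p = 0.0360, edgeR).

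**Figure D3:**
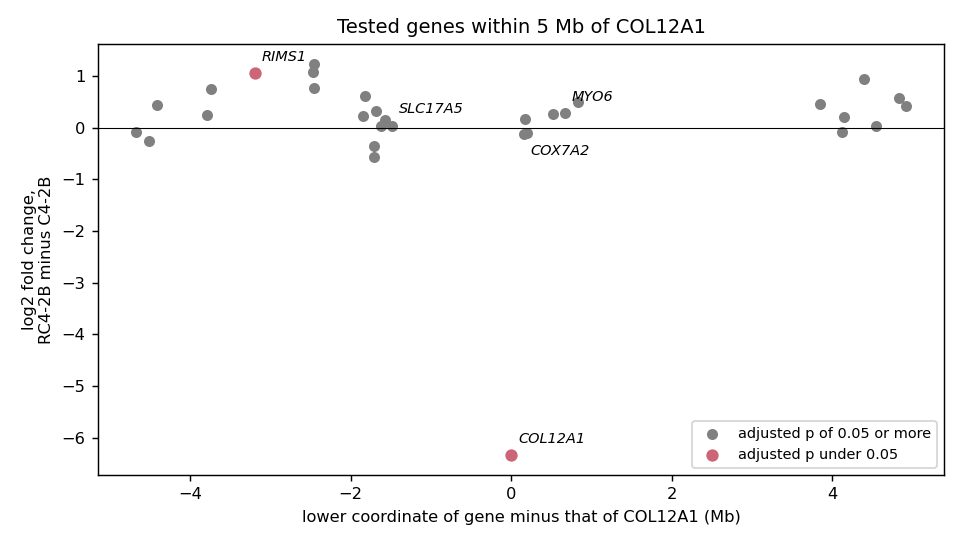
Log2 fold change, RC4-2B minus C4-2B (y axis), of the tested genes within 5 Mb of COL12A1 against the distance between their lower coordinate and that of COL12A1 (x axis, Mb); coloured points passed an adjusted p of 0.05. COL12A1 lies at -6.33, the genes next to it lie near 0, and RIMS1 at 1.05 is the other coloured point.

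Across the genome, 1.08% of 15054 tested genes passed the edgeR threshold as higher in RC4-2B and 0.903% as lower. Among the 17 tested collagens 0 were called higher and 1, COL12A1, was called lower. At an unadjusted edgeR p under 0.05, 3 were higher and 2 lower. The share of all tested genes at an unadjusted p under 0.05 was not counted. No excess is therefore read from unadjusted counts, here or for any list. The median log2 fold change of tested collagens was -0.24, against 0.00625 over all tested genes, with 7 above 0 and 10 below. For scale, the median collagen deviation of a single RC4-2B library from the C4-2B mean had an SD of 0.42 over the 3 libraries, which is larger than that median. DESeq2, which called 3.28% of genes higher and 2.64% lower, called 1 collagen higher, COL3A1 (adjusted p = 0.0216), and 1 lower.

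CPM values did not overlap between groups for 6 of the 17 tested collagens, 3 of them higher in RC4-2B and 3 lower, where 17.0% of all tested genes were so separated upward and 17.1% downward. The 3 higher genes were COL3A1, COL5A2 and COL4A2, and the 3 lower genes were COL12A1, COL13A1 and COL18A1. COL3A1 had a log2 fold change of 1.69 (SE 0.35, adjusted p = 0.0512, edgeR), just outside the threshold. Without RC4-2B replicate 1 its adjusted p was 0.0461, and without RC4-2B replicate 2 it was 0.0156 (edgeR). Leaving out any other library gave an adjusted p between 0.156 and 0.260 (edgeR). COL5A2 had a log2 fold change of 0.99 (SE 0.26, adjusted p = 0.0928) and COL4A2 one of 0.63 (SE 0.22, adjusted p = 0.167, edgeR). COL13A1 had a log2 fold change of -1.56 (SE 0.56, adjusted p = 0.175) and COL18A1 one of -0.60 (SE 0.41, adjusted p = 0.393, edgeR). Among the most abundant members, log2 fold changes were -0.41 (SE 0.25) for COL6A1, 0.16 (SE 0.15) for COL6A2, -0.26 (SE 0.14) for COL4A5, -0.33 (SE 0.31) for COL26A1 and 0.30 (SE 0.19) for COL1A1, with adjusted p between 0.301 and 0.518 (edgeR). Those values do not show that these genes are alike in the lines. COL9A2 (0.03, SE 0.28) and COL4A6 (-0.05, SE 0.26) had the smallest differences, and COL9A3 had a log2 fold change of -0.57 (SE 0.37).

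GC content was set beside the levels in RC4-2B replicate 2. Tested collagens were mostly GC-rich, with a median of 62.3% in the longest transcript against 48.2% over all tested genes, and ran from 46.3% to 67.4%. RC4-2B replicate 2 was low in GC-rich genes. Against the mean of RC4-2B replicates 1 and 3, its median log2 CPM ratio fell from 0.325 in the lowest of 4 equal bins of GC content through 0.170 and -0.119 to -0.629 in the highest bin, and it was -0.415 for collagens. That library had 4017 collagen counts, whereas the other 5 had between 6073 and 7077. COL16A1 and COL18A1 were lowest in it, with log2 ratios of -1.92 and -1.75. COL12A1, at 46.3% GC, was not among the GC-rich members.

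**Figure D4:**
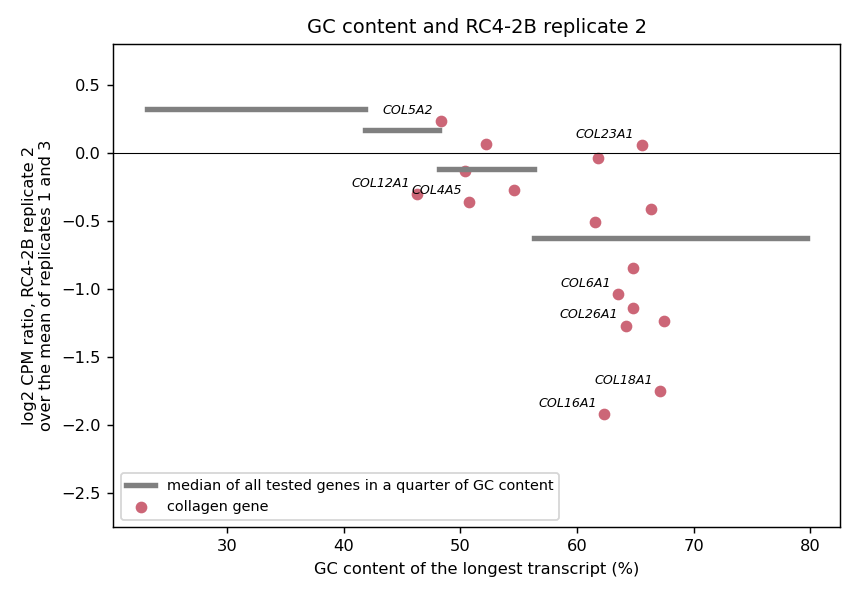
Log2 ratio of CPM in RC4-2B replicate 2 over the mean of RC4-2B replicates 1 and 3 (y axis, 0.5 CPM added to each) against GC content of the longest transcript (x axis); points are the 17 tested collagens and grey lines are medians of all tested genes in each of 4 equal bins of GC content. Grey lines step down from 0.325 to -0.629, and COL18A1 and COL16A1 lie lowest among collagens.

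With a GC trend removed from each library, edgeR called 4.36% of tested genes higher and 3.25% lower, and 5 collagens became higher and 1 lower. These were COL6A2 (log2 fold change 0.74, adjusted p = 0.0358), COL1A1 (0.63, adjusted p = 0.0182), COL3A1 (1.74, adjusted p = 0.0182), COL4A2 (1.02, adjusted p = 0.0449) and COL5A2 (0.94, adjusted p = 0.0490, edgeR) on the higher side and COL12A1 (-6.42, adjusted p = 0.000573, edgeR) on the lower side. Leaving out RC4-2B replicate 2 instead, edgeR called 6.50% of tested genes higher and 6.02% lower, and 2 collagens were called higher, COL1A1 (0.45, adjusted p = 0.0326) and COL3A1 (1.66, adjusted p = 0.0156), and COL12A1 remained lower (-5.76, adjusted p = 4.13e-05, edgeR). In that fit the median log2 fold change of tested collagens was 0.01. COL6A1, the highest collagen, was at -0.05 after the GC correction and -0.14 without RC4-2B replicate 2.

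**Figure D5:**
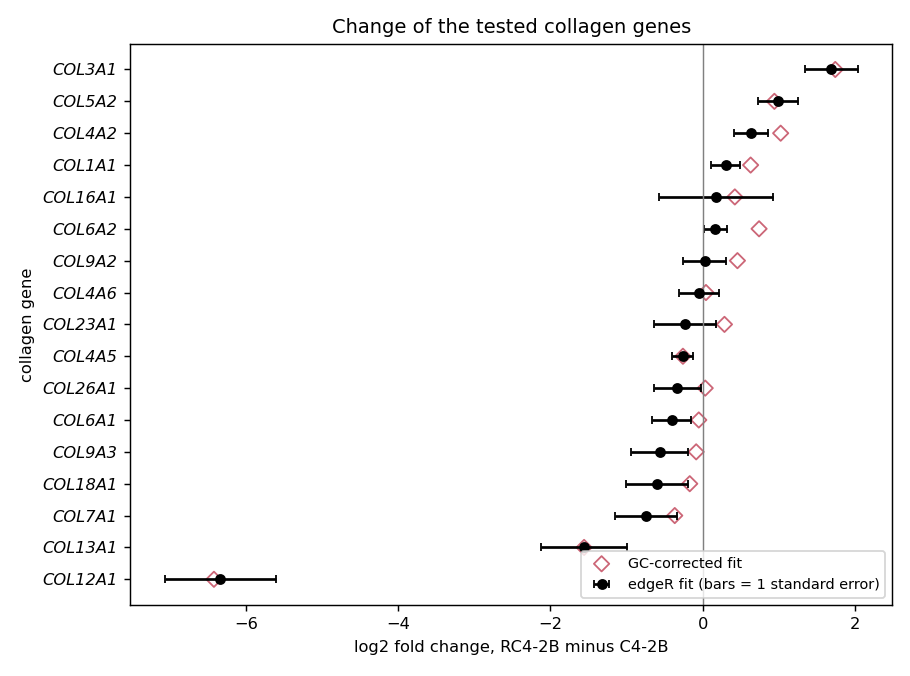
Log2 fold change, RC4-2B minus C4-2B (x axis), of the 17 tested collagens (y axis); black points with bars are the edgeR estimate and 1 standard error, and open diamonds are the estimate after GC correction. COL12A1 stands at -6.33 in the former and -6.42 in the latter, while COL6A2 moves from 0.16 to 0.74.

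Genes that modify, fold, export, cleave, crosslink, bind and degrade collagens were counted next, 141 in 9 lists, of which 81 were tested. Of these, 1 was higher and 4 were lower in RC4-2B by edgeR. Over all tested genes 1.08% were called higher and 0.903% lower, shares that stand beside the count of each list below. Prolyl and lysyl hydroxylation stabilises the helix and prepares its crosslinks. RNA of the genes listed for such modification was present in both lines, 14 of 15 being tested. By edgeR 0 were higher and 0 lower (5 and 0 at an unadjusted p under 0.05, and 2 and 0 by DESeq2), with a median log2 fold change of 0.29. With the GC correction edgeR called 2 higher and 0 lower, beside 4.36% and 3.25% of all tested genes. Without RC4-2B replicate 2 it called 4 higher and 0 lower, beside 6.50% and 6.02%. P4HB, protein disulfide isomerase and the β subunit of prolyl 4-hydroxylase, had CPM of 835, 820 and 832 in C4-2B against 1059, 1233 and 1064 in RC4-2B. Groups did not overlap, and its log2 fold change was 0.43 (SE 0.10, adjusted p = 0.0657, edgeR). PPIB, the cyclophilin of the endoplasmic reticulum, had a log2 fold change of 0.21 (adjusted p = 0.328, edgeR). In all, 5 of the 14 tested genes did not overlap and were higher in RC4-2B (P4HA1, P4HA2, P4HB, CRTAP and PLOD1, named after their values were seen), where 17.0% of all tested genes were so separated.

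Among 16 genes of folding and export, all tested, 1 was called lower. SERPINH1, the gene of HSP47, a chaperone of the procollagen helix, had 13, 11 and 14 counts in C4-2B against 0, 0 and 1 in RC4-2B. Pooled, 38 counts stood against 1, a ratio of 2.71% (exact 95% interval 0.0668% to 16.02%, for counting error only). Its fitted log2 fold change was -4.77 (SE 0.76, adjusted p = 0.0214, edgeR), but the call was lost without any 1 of the 3 C4-2B libraries or without RC4-2B replicate 3, at adjusted p between 0.0762 and 0.136 (edgeR), and DESeq2 gave no adjusted p. SERPINH1 was thus scarce in both lines. FKBP10, a prolyl isomerase of procollagen, and SEC13, a coat protein of export vesicles, were the most abundant of the list by FPKM, with log2 fold changes of -0.26 and -0.11 that did not pass the test.

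Procollagen cleavage had 5 of 10 genes tested and crosslinking 5 of 6, with 0 called in either direction by edgeR or DESeq2 and 1, in crosslinking, lower at an unadjusted p under 0.05. BMP1, the C-proteinase of procollagen, had a log2 fold change of 0.02 and ADAMTS3, an N-proteinase, one of 0.36. LOXL1 and LOXL3, lysyl oxidase family members, had log2 fold changes of 0.46 and 0.03. LOX, the founding lysyl oxidase and the crosslinking gene lower at an unadjusted p, was named after its values were seen. It had 48, 38 and 43 counts in C4-2B against 15, 30 and 14 in RC4-2B, without overlap (log2 fold change -1.09, SE 0.33, adjusted p = 0.130, edgeR). With the GC correction LOXL1 was called higher (1.07, adjusted p = 0.0330) and LOX lower (-1.30, adjusted p = 0.0282), and LOX was also called lower without RC4-2B replicate 2 (-1.49, adjusted p = 0.00958, edgeR). Without that correction, adjusted p for BMP1, ADAMTS3, LOXL1 and LOXL3 lay between 0.234 and 0.949 (edgeR).

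Among fibril partners, 6 of 18 were tested and 2 were called, both lower. Fibronectin (FN1), the scaffold on which collagen fibrils are laid down, had CPM of 395, 486 and 707 in C4-2B against 199, 277 and 156 in RC4-2B. Its log2 fold change was -1.33 (SE 0.26, adjusted p = 0.0414, edgeR). Thrombospondin 1 (THBS1), a matricellular glycoprotein, had CPM of 56.9, 46.2 and 40.9 in C4-2B against 15.8, 19.7 and 12.8 in RC4-2B. Its log2 fold change was -1.58 (SE 0.19, adjusted p = 0.00854, edgeR). Both genes were lower in 3 of 3 RC4-2B libraries, though the THBS1 call was lost without C4-2B replicate 1 (adjusted p = 0.0609, edgeR). For FN1 the call held only without RC4-2B replicate 2, and leaving out any other library gave an adjusted p between 0.0624 and 0.151 (edgeR). Small leucine-rich proteoglycans DCN and LUM, which regulate fibril growth, had no counts.

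Of collagen receptors 7 of 11 were tested, with 0 called by edgeR or DESeq2 and 1 higher at an unadjusted p under 0.05. The β1 integrin subunit, ITGB1, had a log2 fold change of 0.39 (SE 0.15, adjusted p = 0.189) and the receptor kinase DDR1 one of -0.10 (SE 0.28, adjusted p = 0.848, edgeR). Of 16 genes of collagen degradation 6 were tested and 1 was higher. TIMP2, an inhibitor of metalloproteinases, had CPM of 41.0, 44.5 and 46.2 in C4-2B against 64.1, 78.0 and 75.0 in RC4-2B. Its log2 fold change was 0.72 (SE 0.12, adjusted p = 0.0276, edgeR), and the call was lost without any 1 of the 3 C4-2B libraries or without RC4-2B replicate 3, at adjusted p between 0.110 and 0.188 (edgeR). MMP15, a membrane-bound metalloproteinase and the highest of the list by FPKM, had a log2 fold change of -0.61 (SE 0.21, adjusted p = 0.162, edgeR).

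Proteins with collagen stretches outside the COL names numbered 38, of which 18 were at or under the floor and 12 were tested. COLEC12, a scavenger receptor with a collagen stalk, had CPM of 22.5, 25.2 and 31.2 in C4-2B against 8.44, 12.3 and 9.40 in RC4-2B. It was the only one called (log2 fold change -1.39, SE 0.19, adjusted p = 0.0142, edgeR), and lost that call without any 1 of the 3 C4-2B libraries or without RC4-2B replicate 3, at adjusted p between 0.0609 and 0.0791 (edgeR). EDA and SFTPA2, the latter with a near-identical paralog that makes its counts uncertain, led by FPKM and had log2 fold changes of -0.12 and -0.01. Of genes that supply proline, glycine and ascorbate, 10 of 11 were tested and 0 were called by edgeR or DESeq2, with 3 lower at an unadjusted p under 0.05. The proline synthesis enzyme PYCR1 and the mitochondrial glycine enzyme SHMT2 led that list, with log2 fold changes of -0.09 and -0.43 (adjusted p = 0.750 and 0.174, edgeR).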

How the data were processed

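Total RNA of 3 C4-2B and 3 RC4-2B cultures was sequenced. Reads had been aligned by the authors with STAR against GRCh38. The authors deposited whole-number counts per gene without normalization, and FPKM values, in which counts are divided by gene length and library size. Counting program, strand setting and annotation release are not given in the sources used here. Columns were matched to samples by the names in the labels.

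The test was edgeR 4.0.16 under R 4.3.3 (TMM, filterByExpr, glmQLFit, glmQLFTest, cell line as the only term), with Benjamini-Hochberg adjustment over all 15054 tested genes and a threshold of 0.05. SE was obtained as the size of the log2 fold change over √F. CPM values are TMM-scaled. DESeq2 1.42.0, the tool named in the study, and limma 3.58.1 on log2(FPKM + 1) and log2(FPKM + 0.1) were alternatives, as were other scalings and filters, left-out libraries, a replicate block, and a GC offset (lowess, span 0.2, GC content known for 99.6% of tested genes). The GC correction without RC4-2B replicate 2 and the rescaled gene lengths were added after seeing the data. The edgeR step was tested on simulated data. No 2 libraries were copies. Members and lists were chosen with earlier results of these data known. Named genes were COL12A1, members called or with separate groups, the 10 highest by FPKM, partner chains, and of each list the called genes and the 2 highest by FPKM. Deposited coordinates are GRCh38. No protein sequences were used here.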

Additional observations from a re-analysis of the deposited data

How the results depend on the processing

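The call of COL12A1 as lower in RC4-2B held in every count-based fit, and under limma, on log2(FPKM + 1) or log2(FPKM + 0.1), COL12A1 did not reach the minimum FPKM of 1 required in 3 libraries, so 0 collagens were called lower there. The number of collagens called higher, 0 by the edgeR test reported first, was 1 with upper-quartile scaling, 1 with DESeq2, 2 without a filter on low counts, 5 with the GC correction, 4 with the GC correction and replicate block, 4 with the GC correction without RC4-2B replicate 2, and 0 to 2 when a library was left out. The share of all tested genes called higher moved too, from 1.08% to 1.18%, 3.28%, 2.07%, 4.36%, 4.26% and 6.74% in the same order, and to between 0.0838% and 6.50% when a library was left out. Of the pathway genes, 1 was called higher and 4 lower at first. The higher count became 3 with DESeq2, 3 without a filter, 0 in both limma fits, 5 with the GC correction, 5 with that correction and the replicate block, 8 with that correction without RC4-2B replicate 2, and 0 to 5 when a library was left out, and the lower count became 2 and 1 in the limma fits with 1 and 0.1 added and 0 to 6 when a library was left out. Leaving out C4-2B replicate 1 left no pathway gene called, and leaving out RC4-2B replicate 2 gave the most among the left-out libraries. The shares of all tested genes moved likewise. They were 0.0838% higher and 0.1998% lower without C4-2B replicate 1, against 6.50% and 6.02% without RC4-2B replicate 2. In the limma fits with 1 and 0.1 added, 0.384% and 0.325% of all tested genes were called higher, and 0.484% and 0.392% lower. No change particular to pathway genes is read from these counts.

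Replicate numbers did not pair the libraries (correlations of deviations 0.14, 0.08 and -0.01). With the replicate block, 0 collagens were higher and 1 lower, COL12A1 had a log2 fold change of -6.27 (adjusted p = 0.0216, edgeR), 0 pathway genes were higher and 2 lower, and 55 genes of all tested were higher and 74 lower, against 162 and 136 without it.

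Some small differences that passed no test changed sign. COL9A2 went to -0.012 with the replicate block and, without single libraries, to between -0.19 and 0.28. COL26A1 went to 0.032 with the GC correction, 0.016 with the block added, and 0.14 with the GC correction without RC4-2B replicate 2. COL4A6 went to 0.042, 0.027 and 0.059 in the same fits and, without single libraries, to between -0.32 and 0.087. A window of 5 Mb added 1 neighbour of COL12A1 called higher. An FPKM of at least 1 in every library was met by 7 collagens in C4-2B against 5 in RC4-2B. Those that met it in C4-2B alone were COL18A1 and COL9A3. COL18A1 missed it through RC4-2B replicate 2 alone (0.325), and COL9A3 through RC4-2B replicates 2 and 3 (0.452 and 0.834). The matching numbers over all genes were not counted. The cause of these changes was not tested. Depth limits the rare members: with 3 libraries a group, a collagen with a few counts can change several-fold without passing the test.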
